A study of Mus musculus with 9 samples.

Results

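The genes described are 8 rows of the UMI matrix, taken by symbol from the 32195 genes measured: Slc22a5, Slc22a21, Slc22a4, Slc25a20, Cpt1a, Cpt2, Crat and Crot, which encode the carriers of carnitine and the enzymes that join acyl groups to it. All 8 were present in the matrix. The data were single-cell RNA sequencing libraries of the mouse epididymis, the duct in which sperm mature after leaving the testis, cut into caput (proximal), corpus (middle) and cauda (distal). Wild-type, untreated C57BL/6 males (C57BL/6J in the study's methods) were used at postnatal day 42 (P42) or 56 (P56), with 1 pool of 5 mice at P42 and 2 pools of 5 mice at P56, and every pool gave 1 library per segment, so there were 9 libraries, 3 per segment. Single cells were captured on a microfluidic chip, and transcripts were counted as unique molecular identifiers (UMIs). A pool is the replicate here, since the animals within it cannot be separated, and the P42 group is 1 pool, so its spread between pools is not known.

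Carnitine is a small molecule that the body partly takes up with food and partly makes from lysine residues, and it carries fatty acyl groups across the mitochondrial inner membrane so that they can be oxidized. The epididymal lumen is known for a very high concentration of free carnitine in its distal part, which the epithelium takes from the blood, and sperm accumulate it there. Slc22a5 encodes OCTN2, the sodium-dependent high-affinity carnitine transporter of the plasma membrane, Slc22a21 encodes its close relative OCTN3, and Slc22a4 encodes OCTN1, an organic cation carrier. Within the cell, Cpt1a (carnitine palmitoyltransferase of the outer mitochondrial membrane) forms long-chain acyl-carnitines, Slc25a20 (the carnitine-acylcarnitine translocase) exchanges them for free carnitine across the inner membrane, and Cpt2 returns the acyl group to coenzyme A. Crat transfers short-chain acyl groups such as acetyl, and Crot transfers medium-chain acyl groups in peroxisomes.

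The 3 Slc22a genes are neighbours on the minus strand of chromosome 11 (GRCm38): Slc22a5 at chr11:53864542-53891660, Slc22a21 at chr11:53949965-53980332 and Slc22a4 at chr11:53983123-54028090. Slc25a20 lies at chr9:108662088-108684641 on the plus strand, Cpt1a at chr19:3322334-3385733 on the plus strand, Cpt2 at chr4:107903981-107923610 on the minus strand, Crat at chr2:30400471-30415813 on the minus strand and Crot at chr5:8966033-8997324 on the minus strand. All UMIs were assigned to exons by the authors. Slc22a5 and Slc22a21 resemble each other where it matters for such counts: in the last 500 bases of the longest transcript, 74.1% of the 50-base words of Slc22a5 and 74.7% of those of Slc22a21 also occurred in the other gene, and 65.3% of the 100-base words of each. How reads that fit both genes were handled is not given in the sources used here, so the split of UMIs between these neighbours is uncertain. Of the 50-base words in the last 500 bases of Slc25a20, 49.4% also occurred in other genes, none of them among the 8, while the same share was 0 for the other 5. Exons of Crat overlap those of Dolpp1 and an antisense gene over 470 bases, and exons of Crot overlap those of Gm27941 and Gm37153 over 166 bases.

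The promoter windows of 3 genes are shown because, of the genes with such a window, they had the largest segment differences in principal cells: Slc22a5 was higher away from the caput, and Slc25a20 and Cpt1a were lower. They hold the 250 bases before the RefSeq start of the gene (GRCm38.p6), written from 5′ to 3′ on the strand of the gene: Slc22a5 at chr11:53891704-53891953 (minus), Slc25a20 at chr9:108661886-108662135 (plus) and Cpt1a at chr19:3323051-3323300 (plus). Capitals mark the GC box, GGGCGG or its reverse complement CCGCCC.
Slc22a5: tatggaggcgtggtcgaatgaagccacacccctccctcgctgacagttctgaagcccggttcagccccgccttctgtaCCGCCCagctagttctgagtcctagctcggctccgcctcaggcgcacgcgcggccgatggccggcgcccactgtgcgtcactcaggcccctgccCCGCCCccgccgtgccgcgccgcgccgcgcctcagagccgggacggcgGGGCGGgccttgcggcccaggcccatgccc
Slc25a20: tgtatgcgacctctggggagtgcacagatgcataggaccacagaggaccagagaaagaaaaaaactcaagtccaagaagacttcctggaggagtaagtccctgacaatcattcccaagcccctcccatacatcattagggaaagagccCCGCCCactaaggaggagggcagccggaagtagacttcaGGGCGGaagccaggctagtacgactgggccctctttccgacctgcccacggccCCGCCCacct
Cpt1a: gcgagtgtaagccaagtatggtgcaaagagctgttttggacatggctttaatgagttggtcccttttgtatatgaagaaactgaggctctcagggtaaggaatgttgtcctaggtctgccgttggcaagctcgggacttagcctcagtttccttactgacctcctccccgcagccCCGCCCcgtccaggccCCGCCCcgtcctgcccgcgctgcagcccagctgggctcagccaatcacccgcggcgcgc

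RefSeq windows, which run from 250 bases before to 50 after the start, were matched for 6 of the 8 genes, all but Crat and Slc22a21. With both strands searched, GGGCGG occurred in 6 of these 6 windows and in 32.7% of all 32851 windows. CCAAT occurred in those of Crot and Cpt1a (33.8% of all windows), AGGTCA, the core element of many nuclear receptors, in that of Cpt1a (14%), and TATAAA (12.4%), AGAACA, the core of the androgen receptor element (16.1%), and the direct repeat of AGGTCA with 1 free base between the copies, which PPARs bind (0.0335%), in none of the 6. Each match of that repeat is also a match of AGGTCA. These are matches of letters in the windows and were not tested for binding.

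The 44869 deposited barcodes held from 23114756 to 50655384 UMIs per library, and 41491 cells were used, with a median of 3086 to 7644 UMIs per cell. Clusters were named from markers of each cell type, with the 8 genes left out of the clustering, which gave 17751 principal-like cells, 5236 clear/narrow, 4652 myoid/fibroblast, 4157 basal, 2995 macrophage/monocyte, 914 sperm, 858 endothelial, 536 halo/T and 220 ciliated, while 4172 cells of 2 clusters stayed unnamed. Of the unnamed cells 3156 were from the corpus. They made up 10.4%, 23.0% and 36.9% of the corpus libraries (P42, P56 replicate 1 and P56 replicate 2) and 2.30% to 5.15% of the others. Values of corpus principal cells leave them out. The ciliated cells, all from the caput, entered no comparison. In each library the summed principal-like cells had a UMI of at least 23 of 24 principal cell markers. This does not set them apart, since these markers were found in every population (below). A gate on single cells with the same markers gave 11602 principal cells, of which 8029 were among the 17751. Of 44631 barcode sequences, 143 occurred in more than 1 library. The P42 cauda library stood apart: 31.6% of its cells were myoid/fibroblast and 19.4% macrophage/monocyte, against 9.24% to 12.7% and 3.61% to 6.89% in the cauda at P56. Its principal-like cells held a median of 1481.5 UMIs, against 3204 to 7849 in the other libraries, and in them 11 myoid/fibroblast markers summed to 14433 CPM (UMIs of a gene per 1000000 UMIs of the sum), against 154 to 2266. The threshold that let them be named principal was set after the clusters had been seen. Principal cell markers were found in every population: the 24 summed, in the other populations, to 35.8% to 89.7% of their level in principal cells of the same segment.

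Principal cells, the main absorptive and secretory cells of the epithelium, differed along the duct in 5 of the 7 carnitine genes that could be tested: relative to the caput, Slc22a5 and Slc22a21 were higher in the corpus and in the cauda, Slc25a20 and Cpt1a were lower there, and Crot was highest in the corpus. Crat and Cpt2 did not pass the test, and Slc22a4 had too few UMIs to be tested. Calls rest on edgeR's quasi-likelihood F test over the segments with the pool as a block and on an adjusted p under 0.05 (Benjamini-Hochberg over all genes tested), which 43% of the 14937 genes tested in principal cells passed, so that a changed gene was common there. Of single contrasts, 5 of the 7 passed between corpus and caput (35.4% of all genes), 4 between cauda and caput (36.4%) and 2 between cauda and corpus (14.1%). All 5 also passed in each of the 3 fits that left out 1 pool, in which 61.6% of all genes passed without the P42 pool, 16.3% without P56 replicate 1 and 22% without P56 replicate 2.

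Slc22a5, the OCTN2 transporter, had the largest fitted segment difference of the 7 genes tested in principal cells. In the caput its level in principal cells was 2.32 CPM at P42 and 1.53 and 2.18 CPM in the P56 pools. In the corpus the corresponding levels were 38.4, 27.3 and 32.8 CPM, and in the cauda 26.9, 22.9 and 29.9 CPM. Every corpus and cauda library thus lay far above every caput library, while corpus and cauda overlapped. The fitted difference was 4.13 ± 0.21 on the log2 scale between corpus and caput (SE, 17.5-fold, edgeR adjusted p = 9.39e-06) and 3.97 ± 0.21 between cauda and caput (15.7-fold, adjusted p = 1.02e-05). Cauda and corpus differed by -0.15 ± 0.18 (adjusted p = 0.633). These levels rest on 105 caput, 970 corpus and 1000 cauda UMIs.

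Slc22a21, encoding OCTN3, stood at 1.04 CPM at P42 and 0.38 and 0.84 CPM at P56 in caput principal cells, against 4.66, 3.48 and 2.83 CPM in the corpus and 15.2, 7.31 and 5.61 CPM in the cauda. The groups did not overlap, and the level rose at each step along the duct. Corpus exceeded caput by 2.38 ± 0.32 on the log2 scale (edgeR adjusted p = 0.000774), cauda exceeded caput by 3.76 ± 0.31 (adjusted p = 6.41e-05), and cauda exceeded corpus by 1.38 ± 0.28 (adjusted p = 0.0133). These levels rest on 38 caput, 109 corpus and 279 cauda UMIs. Slc22a21 passed the filter on low counts through corpus and cauda, where it is high, so its calls against the caput are no separate support. The shared sequence described above applies to this gene and to Slc22a5 alike. Slc22a4 gave 18 UMIs in all principal cells, of which 7 were from the caput, 6 from the corpus and 5 from the cauda, and the 5 were all in the P42 library.

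Slc25a20, the inner membrane translocase, went the other way. Its levels in caput principal cells were 11.6 CPM at P42 and 8.41 and 7.87 CPM at P56, those in the corpus 1.65, 1.09 and 1.26 CPM, and those in the cauda 5.15, 0.32 and 0.69 CPM. The caput lay above both other segments in every library. Expressed as caput over the other segment, the fitted fold was 6.67 for the corpus (log2 difference of corpus from caput -2.74 ± 0.53, edgeR adjusted p = 0.0049) and 6.41 for the cauda (-2.68 ± 0.54, adjusted p = 0.00562). The cauda difference lost its call without P56 replicate 1 (adjusted p = 0.0653) and without P56 replicate 2 (adjusted p = 0.0578). The high cauda value is that of the P42 library, where myoid/fibroblast markers were also high, and their part in it was not tested.

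Cpt1a, which forms long-chain acyl-carnitines and is the regulated entry step of mitochondrial fatty acid oxidation, was 35.6 CPM at P42 and 24.7 and 27.4 CPM at P56 in the caput, 10.6, 5.87 and 3.66 CPM in the corpus and 12.9, 4.85 and 9.27 CPM in the cauda. No corpus or cauda library reached the lowest caput library. The fall from caput was 4.3-fold in the corpus (log2 -2.10 ± 0.27, edgeR adjusted p = 0.000656) and 2.91-fold in the cauda (-1.54 ± 0.26, adjusted p = 0.00268), and the latter lost its call without P56 replicate 1 (adjusted p = 0.0553). Cpt2, its partner on the inner membrane, had means of 10.6 ± 3.11, 9.57 ± 0.94 and 11.3 ± 3.27 CPM in caput, corpus and cauda (SD, n = 3), with overlapping libraries, and did not pass the edgeR test (adjusted p = 0.248).

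Crot, the peroxisomal octanoyltransferase, was 83.0, 54.4 and 62.9 CPM in caput principal cells (P42, P56 replicate 1 and P56 replicate 2), 166, 122 and 93.9 CPM in the corpus and 67.4, 46.1 and 38.7 CPM in the cauda. Corpus libraries lay above all others, and caput and cauda overlapped. The corpus exceeded the caput by 1.0 ± 0.15 on the log2 scale (edgeR adjusted p = 0.00131), the cauda fell by 1.2 ± 0.15 from the corpus (adjusted p = 0.00189), and the cauda differed from the caput by -0.20 ± 0.15 (adjusted p = 0.336). Without P56 replicate 1 the first of these differences had an adjusted p of 0.0523. Crat, the acetyltransferase, had means of 1.61 ± 0.40, 2.51 ± 0.84 and 2.45 ± 2.13 CPM in caput, corpus and cauda (SD, n = 3) and did not pass the edgeR test (adjusted p = 0.237).

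**Figure D1:**
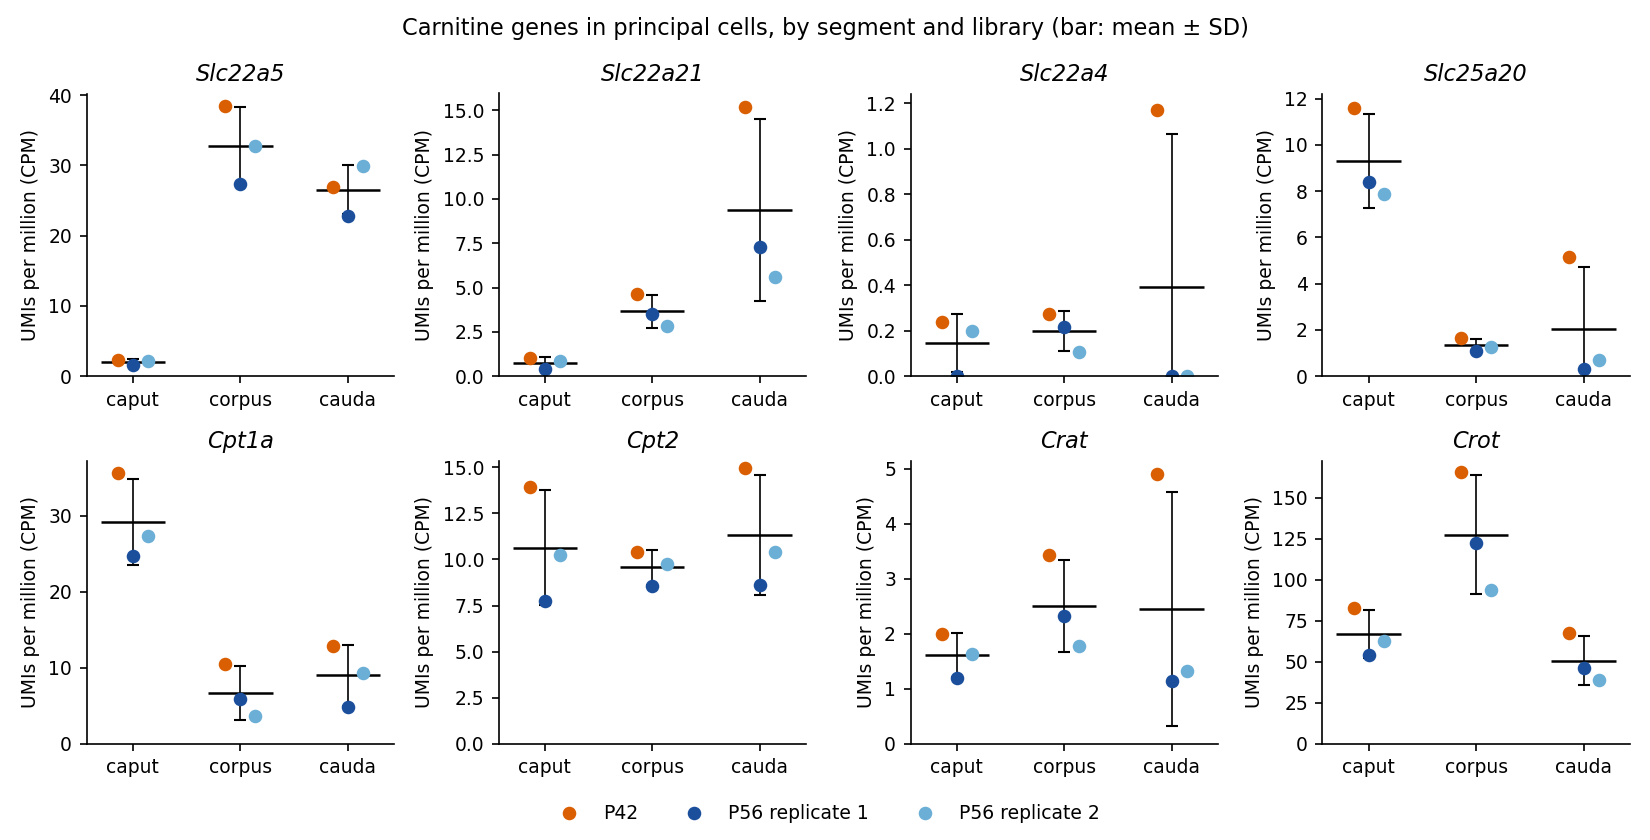
Levels of the 8 genes in principal cells, in CPM (vertical axis) for caput, corpus and cauda. Points are libraries (orange, P42 and blue, the P56 replicates), horizontal bars are means and vertical bars the SD over 3 libraries: Slc22a5 stays between 1.53 and 2.32 CPM in the caput and between 22.9 and 38.4 CPM elsewhere, and Slc25a20 and Cpt1a are highest in the caput.

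Summed over all cells of a library, the same 5 genes passed the test over the segments, of 8 tested, where 29.5% of all 18471 genes did. Between corpus and caput 5 passed (21.1% of all genes), between cauda and caput 3 (25.8%) and between cauda and corpus 1 (9.63%). In such sums fewer cells of a type and less RNA per cell cannot be told apart. Slc22a5 stood at 3.17, 1.75 and 2.09 CPM in the caput, 24.3, 26.8 and 30.6 CPM in the corpus and 13.6, 17.2 and 24.2 CPM in the cauda (P42, P56 replicate 1 and P56 replicate 2). The segments did not overlap between the caput and the others, and the corpus exceeded the caput by 3.68 ± 0.37 on the log2 scale (edgeR adjusted p = 0.00101). Slc22a21 was higher than in the caput by 1.53 (corpus) and 2.03 (cauda). The Slc25a20 difference from the caput was -1.85 for the corpus and -1.21 for the cauda, and that of Cpt1a was -1.60 for the corpus, while its cauda difference of -0.75 ± 0.24 missed the threshold (adjusted p = 0.0558). Crot was 0.74 higher in the corpus than in the caput and the cauda differed from the corpus by -0.91.

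These sums depended on the pools more than those of principal cells. Without P56 replicate 1 none of the 8 genes passed by edgeR, though 5 had an unadjusted p under 0.05, where 3.21% of all genes passed. Without P56 replicate 2, of the 8, Slc22a5 and Slc22a21 passed (6.6% of all genes), and without the P42 pool the 5 did (58.3%). Without the block the cauda difference of Slc25a20 lost its call (-1.09, adjusted p = 0.103). Principal cells gave 56.1%, 43.2% and 39.4% of all UMIs in caput, corpus and cauda, and 47.7%, 49.8% and 53.9% of those of Slc22a5. Of the Slc25a20 UMIs they gave 43.7% in the caput, but 17.9% in the corpus and 9.85% in the cauda.

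Outside principal cells, Slc22a5 was again lowest in the caput in basal, clear/narrow and myoid/fibroblast cells, macrophages/monocytes and sperm, the populations in which it passed the filter on low counts. In the caput it had 22, 21, 20, 5 and 9 UMIs in these populations, in that order. It passed the filter there through corpus and cauda, where it is high, so these calls are no separate support for the segment difference. Genes of the 8 that passed numbered 5 of 6 tested in basal cells (21.4% of all genes there), 2 of 7 in clear/narrow cells (17.9%), 1 of 7 in myoid/fibroblast cells (11.3%), 1 of 5 in macrophages/monocytes (12.9%), 0 of 2 in endothelial cells (8.99%, with 0 at an unadjusted p under 0.05 in edgeR and 0 passing in DESeq2), 0 of 1 in halo/T cells (15.8%, again with 0 at an unadjusted p under 0.05 and 0 in DESeq2) and 2 of 5 in sperm (28.5%). A gene enters this count where it had enough UMIs in that population. Without that filter Slc22a5 was tested in endothelial and halo/T cells too, and it passed over the segments in both, on 50 and 45 UMIs. It also passed without the filter in each of the populations named first.

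In macrophages/monocytes Slc22a5 was 0.66, 1.33 and 1.46 CPM in the caput, on 5 UMIs in all, 13.1, 24.8 and 36.4 CPM in the corpus and 8.29, 19.4 and 23.8 CPM in the cauda, and corpus exceeded caput by 4.47 ± 0.42 on the log2 scale (edgeR adjusted p = 0.000217). In basal cells it was 3.45, 2.82 and 1.30 CPM in the caput, 12.4, 22.3 and 27.1 CPM in the corpus and 6.71, 10.7 and 19.8 CPM in the cauda, with corpus above caput by 3.31 ± 0.48 (adjusted p = 0.000519). Clear/narrow cells gave 2.85 ± 0.38 for the same difference (adjusted p = 0.000549), myoid/fibroblast cells 2.37 ± 0.48 (adjusted p = 0.016) and sperm 3.42 ± 0.62 (adjusted p = 0.000953). In all 5 populations the caput libraries lay below every corpus and cauda library, and the gene had passed the filter through corpus and cauda (above). The levels stand beside those of the principal cell markers, which free RNA can carry into other cells. In macrophages/monocytes, Slc22a5 stood at 68.9% of its principal cell level in the corpus, where the 24 principal markers stood at 44.2%, and at 55.8% in the cauda, where they stood at 43.3%. In basal cells Slc22a5 stood at 68.9% and 56.8%, and the markers at 53.0% and 68.9%. In clear/narrow cells the corresponding shares were 49.4% and 55.8% for Slc22a5 and 40.7% and 55.5% for the markers. In myoid/fibroblast cells they were 48.9% and 48.6% against 40.4% and 45.4%, and in sperm 87.2% and 111% against 69.1% and 45.0%. The part of free RNA in these differences was not tested.

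Slc25a20 and Cpt1a stood above their principal cell level in most other populations. In the corpus Slc25a20 was at 379% of its principal cell level in basal, 624% in clear/narrow and 507% in myoid/fibroblast cells and 506% in macrophages/monocytes, and Cpt1a at 310%, 181%, 337% and 330%. The segment difference of Slc25a20 passed in basal cells (corpus from caput -1.61 ± 0.37, edgeR adjusted p = 0.0104, and cauda -0.95 ± 0.31, adjusted p = 0.0471) and in clear/narrow cells (-0.87 ± 0.23, adjusted p = 0.0327, and -1.32 ± 0.24, adjusted p = 0.0037). Cpt1a passed in basal cells (-0.97 ± 0.27, adjusted p = 0.0281, and -0.77 ± 0.25, adjusted p = 0.0464), and in clear/narrow cells in the corpus alone (-1.06 ± 0.29, adjusted p = 0.0365), where its test over all segments missed the threshold (adjusted p = 0.059). In myoid/fibroblast cells and macrophages/monocytes both genes had negative differences that missed the threshold. Slc22a21 rose in basal cells by 2.47 ± 0.57 in the corpus (adjusted p = 0.0118) and 2.76 ± 0.52 in the cauda (adjusted p = 0.00265). These rest on 9 caput, 20 corpus and 63 cauda UMIs, and Slc22a21 passed the filter there through corpus and cauda, where it is high. The tests of Crot and Cpt1a over the segments in basal cells did not pass with DESeq2, without the block or with cells gated 1 by 1, nor did that of Slc22a5 in myoid/fibroblast cells without the block. Slc22a21 also had no call in gated basal cells, and Crot had none in basal cells without the filter. Without P56 replicate 1 or without P56 replicate 2, Slc22a5 alone of the 8 passed in basal cells (5.84% and 8.56% of all genes), Slc25a20 did not pass in clear/narrow cells, and Slc22a5 did not pass in myoid/fibroblast cells. Without the P42 pool Crot and Cpt1a passed in myoid/fibroblast cells and in macrophages/monocytes (41.2% of all genes in each), Cpt1a also in clear/narrow cells (28%) and Crot in halo/T cells (36.4%).

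**Figure D2:**
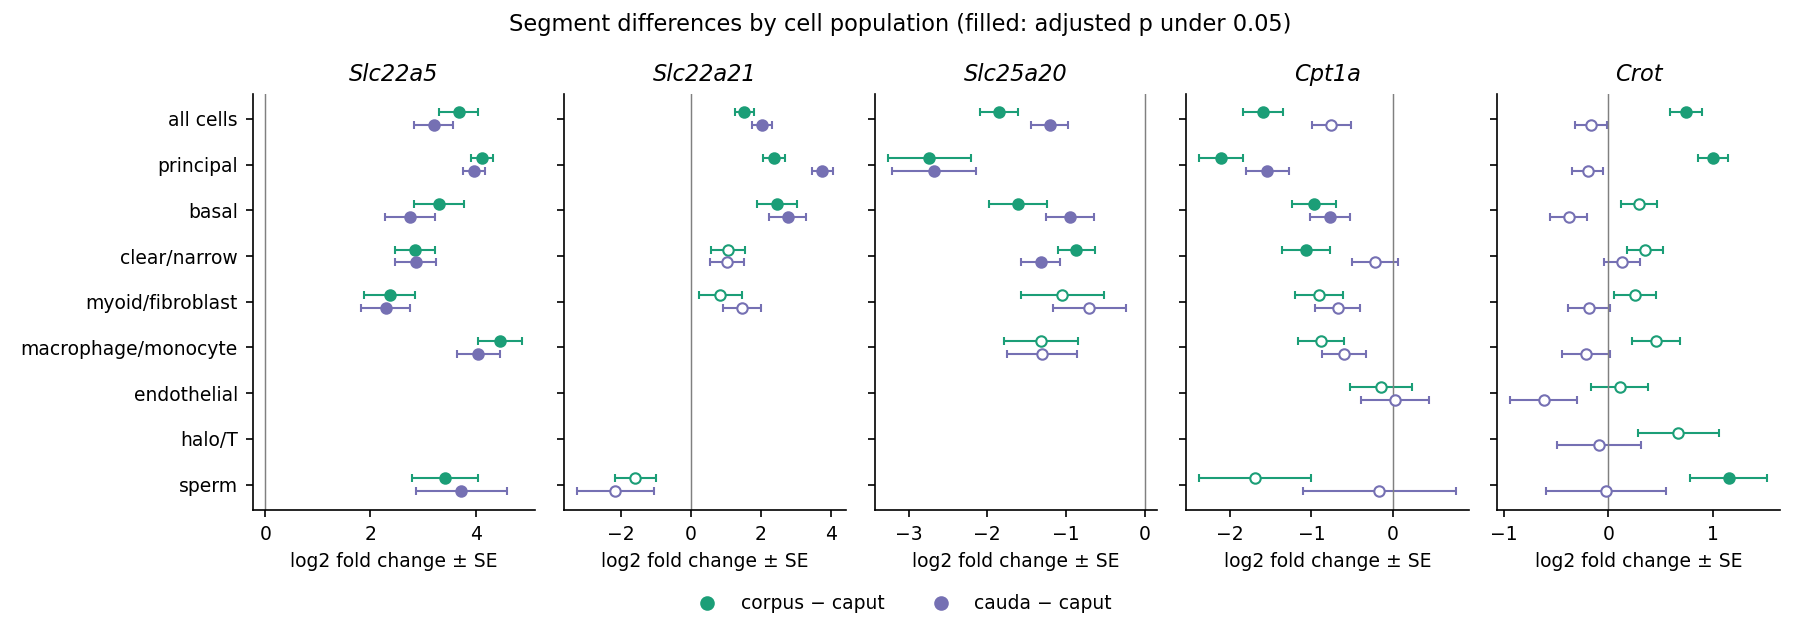
Segment differences of 5 carnitine genes in each cell population, as log2 fold changes ± SE from edgeR (horizontal axis; green, corpus minus caput and violet, cauda minus caput). Filled points have an adjusted p under 0.05, and populations without a point were not tested: Slc22a5 is to the right of 0 in all 7 rows drawn, and Slc25a20 to the left in all 6.

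Sperm held high levels of Slc22a21 and Crat, on few UMIs. Slc22a21 in caput sperm was 27.5 CPM at P42 and 40.0 and 24.5 CPM at P56, on 70 UMIs, although Slc22a5, its neighbour of shared sequence, was 0, 2.86 and 3.70 CPM there, on 9 UMIs. The sperm class joined a cluster led by Prm1, Prm2 and Akap4, with 199 caput, 404 corpus and 83 cauda cells, and another led by Ldhc, Cox8c and Cetn1, with 174, 54 and 0 cells, so its make-up differed between the segments, and the part of this in the values of sperm was not tested. Sperm were 2.74% of the caput's UMIs and 38.9% of those of Slc22a21, but P56 replicate 2 gave 303 of the 373 caput sperm, and without it these shares were 0.758% and 18.5% (17 of 92 UMIs). In the corpus Slc22a21 was 18.5, 5.01 and 7.19 CPM, a difference of -1.59 ± 0.58 on the log2 scale that missed the threshold (edgeR adjusted p = 0.0524). Crat in sperm was 36.7, 48.5 and 13.4 CPM in the caput, 30.2, 8.35 and 3.60 CPM in the corpus, and 24.1 and 9.06 CPM in the 2 cauda libraries with enough sperm, and its segment test did not pass (adjusted p = 0.191). Crot passed, with 82.6, 42.8 and 51.3 CPM in the caput and 106, 102 and 97.1 CPM in the corpus (1.15 ± 0.37, adjusted p = 0.0286), against 24.1 and 72.5 CPM in the cauda. Crot no longer passed over the segments in sperm without P56 replicate 1, with DESeq2, with TMM factors (which correct for the make-up of a library) set to 1, without the block or with clusters at a resolution of 2, and with TMM factors of 1 Slc22a21 passed instead. Slc22a21 entered the tests of sperm only through the caput, where it is high, so that call is no support for a difference. Slc22a5 did not pass without P56 replicate 2, and with cells gated 1 by 1 neither of the 2 genes tested in sperm passed. Cauda P56 replicate 1 held 7 sperm and was not used.

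Levels were then compared between populations within the same library, by a two-sided exact permutation test of the mean difference of log2(CPM + 1) that flips signs within libraries. None of the 224 comparisons (28 pairs of populations for each gene) passed after adjustment over all of them (smallest adjusted p = 0.0673), and 60 had an unadjusted p under 0.05. In 13 the p was 0.00391, the smallest that 9 libraries allow, so every library had the same sign. The test treats the 9 libraries as independent, but they come from 3 pools of mice and share animals, so these p-values are too small, and signs flipped by whole pools could not give a p below 0.25. The order of the means is therefore a description, in which no neighbours could be told apart after adjustment.

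The means were taken over libraries, and those of sperm over 8, of which 2 were from the cauda, so sperm and the other populations do not weight the segments alike. For Slc22a5 principal cells had a mean of 20.5 ± 14.5 CPM (SD, n = 9) and sperm of 19.0 ± 15.0 (n = 8), though sperm were higher in 5 of the 8 libraries they share. Below them came halo/T cells, macrophages/monocytes, endothelial, basal and myoid/fibroblast cells, with clear/narrow cells last (10.8 ± 6.84). This order was not that of each segment: endothelial cells (4.22 CPM) stood above principal cells (2.01) in the caput, halo/T cells (34.3) above principal cells (32.8) in the corpus, and sperm (33.2) above principal cells (26.5) in the cauda. Within libraries principal cells exceeded clear/narrow cells by 0.61 (log2) in 8 of 9 libraries (exact permutation p = 0.0195, adjusted 0.114). For Slc25a20 the order, sperm aside, ran from endothelial (11.8 ± 7.78 CPM) and basal cells (10.7 ± 6.92) over clear/narrow cells (10.3 ± 5.33), myoid/fibroblast cells, macrophages/monocytes and halo/T cells to principal cells (4.23 ± 4.17), and sperm were at 17.6, 2.24 and 0 CPM in caput, corpus and cauda. In the caput basal (17.8) and clear/narrow cells (16.5) stood above endothelial cells (12.5), and halo/T cells (6.22) below principal cells (9.3). Principal cells were below basal cells by 1.33, below clear/narrow cells by 1.41 and below endothelial cells by 1.53 on the log2 scale, each in 9 of 9 libraries (exact permutation p = 0.00391, adjusted 0.0673).

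Averaged in the same way, Cpt1a was highest in basal cells (31.3 ± 16.6 CPM) and endothelial cells (29.0 ± 11.2) and lowest in principal cells (15.0 ± 11.4) and sperm (14.7 ± 12.5, n = 8). Basal cells exceeded principal cells by 1.15 and myoid/fibroblast cells by 0.31 on the log2 scale in 9 of 9 libraries (exact permutation p = 0.00391). Crat was highest in sperm (21.7 ± 15.9 CPM) and lowest in principal cells (2.19 ± 1.24), with a difference of 2.48 on the log2 scale in 8 of 8 libraries (exact permutation p = 0.00781, the smallest that 8 libraries allow). Halo/T cells stood below principal cells for Crat in the caput (0.90 CPM, on 1 UMI, and 1.61) and in the mean of log2 values (1.25 and 1.59). Crot was highest in clear/narrow cells (111 ± 36.2 CPM), then basal cells (94.6 ± 29.4), and lowest in endothelial cells (60.6 ± 19.3), and both epithelial types exceeded endothelial and myoid/fibroblast cells in 9 of 9 libraries. Slc22a21 had a mean of 16.8 ± 13.4 CPM in sperm and of 3.39 to 4.95 CPM in the other 7 populations, but sperm stood first in the caput alone (30.7 CPM), since halo/T cells (10.6) were above sperm (10.2) in the corpus, and endothelial (10.8) and principal cells (9.38) were above sperm (6.02, on 2 UMIs) in the cauda. Endothelial cells were also above basal cells for Cpt1a in the corpus (27.0 and 21.8 CPM) and cauda (28.9 and 27.1), and principal cells above clear/narrow cells for Crot in the corpus (127 and 119). For Cpt1a, principal cells (29.3) stood above clear/narrow cells (25.6) and sperm (21.1) in the caput, and halo/T cells (15.9) below sperm (18.1) in the cauda. In the caput the Crot level of endothelial cells (70.6) was above that of 5 other populations (58.9 to 68.8). Cpt2 had means from 9.31 ± 3.45 CPM in macrophages/monocytes to 14.6 ± 9.08 in halo/T cells, and 0 of its 28 pairs had an unadjusted p under 0.05. Slc22a4 stayed at or below a mean of 2.29 ± 2.53 CPM (sperm) in the 8 populations compared. In the ciliated cells of the caput it was 5.12, 0 and 4.41 CPM, on 6 UMIs, and Slc22a5 was 10.2, 6.16 and 4.41 CPM, on 11 UMIs (P42, P56 replicate 1 and P56 replicate 2).

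**Figure D3:**
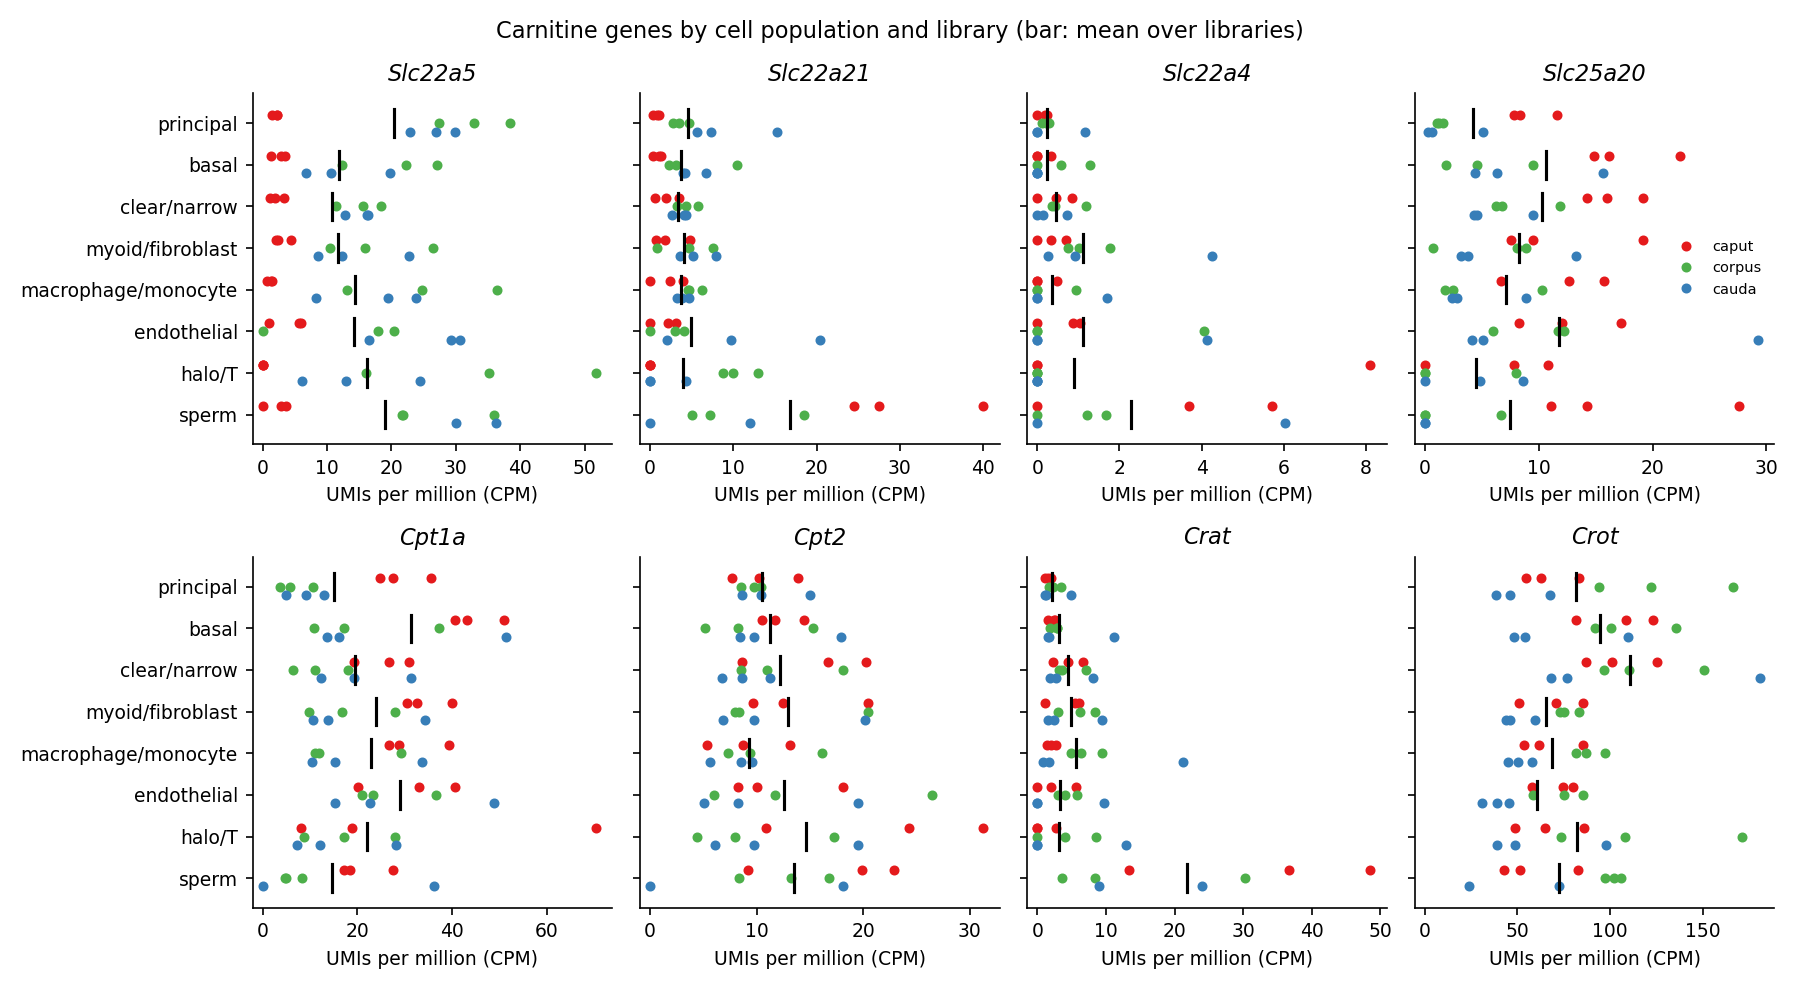
Levels of the 8 genes by cell population, in CPM (horizontal axis), 1 point per library coloured by segment, with a vertical bar at the mean over libraries. Caput points of Slc22a5 lie at or below 6.03 CPM in each of the 8 populations drawn, and those of Slc22a21 and Crat in sperm reach 40.0 and 48.5 CPM.

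A UMI of Slc22a5 was found in 1.36% of caput principal cells (exact Clopper-Pearson 95% interval 1.11% to 1.65%), 17.1% of corpus (16.0% to 18.2%) and 14.8% of cauda principal cells (13.9% to 15.8%), at median depths of 6469, 5735 and 6071 UMIs. By library these shares ran from 1.03% to 1.74%, from 14.3% to 21.4% and from 5.61% to 21.1%. The median depth of the cauda libraries ran from 1481.5 (P42) to 7849 UMIs (P56 replicate 2). With each cell thinned to 1000 UMIs the shares were 0.216%, 2.72% and 2.48%, in the same order as the levels. Shallower cells left out numbered 8, 14 and 360. Halo/T cells, which belong to the immune system, had such a UMI in 0 of 89 caput cells, which allows a share of up to 3.37% if 3 cells are taken as the limit and of 4.06% by the exact interval, in 10.3% of corpus cells and in 6.34% of cauda cells, at median depths of 6244, 3294 and 4283 UMIs. Intervals cover counting error only.

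Between the ages, P56 was compared with P42 in each segment, where the single P42 library is assumed to vary like the P56 pairs. The names of the P42 columns give a segment and no age, and they were assigned to P42 because the other columns carry the replicate numbers of the P56 libraries. Over all cells, 0 of the 8 genes passed in the caput (4.15% of all genes passed; 0 had an unadjusted p under 0.05 in edgeR and 0 passed in DESeq2), 3 in the corpus (15.6%) and 4 in the cauda (43%). Slc22a5 was 24.3 CPM at P42 and 26.8 and 30.6 CPM at P56 in the corpus, and 13.6 against 17.2 and 24.2 CPM in the cauda, so P56 was higher in each library, by 0.89 ± 0.23 (edgeR adjusted p = 0.0379) and 1.36 ± 0.24 (adjusted p = 0.00264) on the log2 scale. Both calls were lost with TMM factors set to 1 (0.24, adjusted p = 0.522, and 0.61, adjusted p = 0.0846). Slc25a20 was lower at P56, with 6.07 CPM at P42 and 2.09 and 1.83 CPM at P56 in the corpus (-0.98 ± 0.23, adjusted p = 0.0256) and 10.1 against 2.71 and 2.65 CPM in the cauda (-1.15 ± 0.21, adjusted p = 0.00298). Cpt1a passed in the corpus (18.7 against 7.06 and 5.49 CPM, -0.93 ± 0.24, adjusted p = 0.034). The P42 corpus library also held more myoid/fibroblast cells (15.4% against 6.25% and 5.16% at P56) and macrophages/monocytes (12.1% against 4.6% and 4.24%), in which both genes stood above their principal cell level (above), and the part of this in the corpus differences was not tested. In corpus principal cells Slc25a20 differed by -0.064 ± 0.50 (adjusted p = 0.968) and Cpt1a by -0.68 ± 0.36 (adjusted p = 0.355).

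In the cauda Crat and Slc22a4 differed between the P42 library and those at P56, where age and library cannot be told apart, since P42 has 1 cauda library. Crat was 11.5 CPM at P42 and 1.54 and 1.60 CPM at P56 (-2.11 ± 0.24, edgeR adjusted p = 0.000281), and Slc22a4 was 2.49 CPM at P42, on 47 UMIs, and 0.28 and 0.05 CPM at P56, on 10 and 2 UMIs (-3.17 ± 0.76, adjusted p = 0.0106). In the P42 cauda library 33 of the 47 Slc22a4 UMIs lay in myoid/fibroblast cells, at 4.25 CPM against 0.91 and 0.27 CPM in those cells at P56. For Crat, 100 of 217 UMIs lay in macrophages/monocytes, at 21.3 CPM against 0.81 and 1.77 CPM at P56. Both populations were also larger shares of that library (above), and their part in the differences over all cells was not tested.

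In principal cells 0 of the 8 genes passed in the caput (0.604% of all genes) and 0 in the corpus (2.45%), as with DESeq2, and 0 had an unadjusted p under 0.05 in edgeR in either, while 3 passed in the cauda (30.8%), Slc22a5, Slc25a20 and Slc22a4. Slc25a20 was 5.15 CPM in cauda principal cells at P42, on 22 UMIs, against 0.32 and 0.69 CPM at P56, on 5 and 12 UMIs (-2.54 ± 0.48, edgeR adjusted p = 0.00369). Slc22a4 had 5 UMIs at P42 and 0 in each P56 library, where 3 UMIs would be 0.19 and 0.17 CPM. It entered the test only through the P42 library, where it is high, so its call is no support for a difference. Slc22a5 was 26.9 CPM at P42 and 22.9 and 29.9 CPM at P56, which overlap, and its fitted difference of 0.75 ± 0.22 (adjusted p = 0.031, DESeq2 0.115) became -0.030 when the TMM factors were set to 1. These 3 differences all involve the P42 cauda library, whose principal-like cells were shallow and rich in myoid/fibroblast markers, and their part was not tested. The difference between caput and cauda itself differed between the ages for 2 of the 8 genes over all cells (21% of all genes) and for 1 in principal cells (15%), and that between corpus and caput for 0 in both (0% and 0.221%), though 2 had an unadjusted p under 0.05 in edgeR over all cells. This fit had no pool block. With the block the same 3 passed, and Slc22a4 over all cells passed as well (adjusted p = 0.0475, against 0.0885 without it).

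Setting the TMM factors to 1 moved the median of all genes by -0.37, -0.65 and -0.76 on the log2 scale in caput, corpus and cauda over all cells, and by -0.29, -0.44 and -0.78 in principal cells. Of the genes called, the share that was higher at P56 went from 28.3% to 6.4% for the caput, 42.6% to 2.71% for the corpus and 46.3% to 13.2% for the cauda over all cells. In principal cells it went from 51.9% to 17.1%, 44.2% to 7.51% and 53.0% to 5.94%. On that scale all calls among the 8 were lower at P56, as were most calls over all genes. The share of all genes that passed on that scale is not given here, so the counts that follow are a description. Over all cells 5 passed in the cauda, where the split had been 1 higher and 3 lower: Slc22a4, Slc25a20 (-1.91), Crat (-2.87) and, in addition, Cpt1a and Cpt2. In the corpus 3 passed, Slc25a20, Cpt1a and, in addition, Crat, and in cauda principal cells 5, Slc22a4, Slc22a21, Slc25a20, Crat and Crot. Between segments this step moved the median by -0.16 and -0.25 (corpus and cauda from caput) over all cells and by -0.09 and -0.22 in principal cells. Of the genes called between segments, the share that was higher went from 51.7% to 41.2% and from 44.6% to 28.4% over all cells. For cauda against caput in principal cells it went from 48.3% to 34.7%. As before, 5 of the 8 genes passed over the segments.

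**Figure D4:**
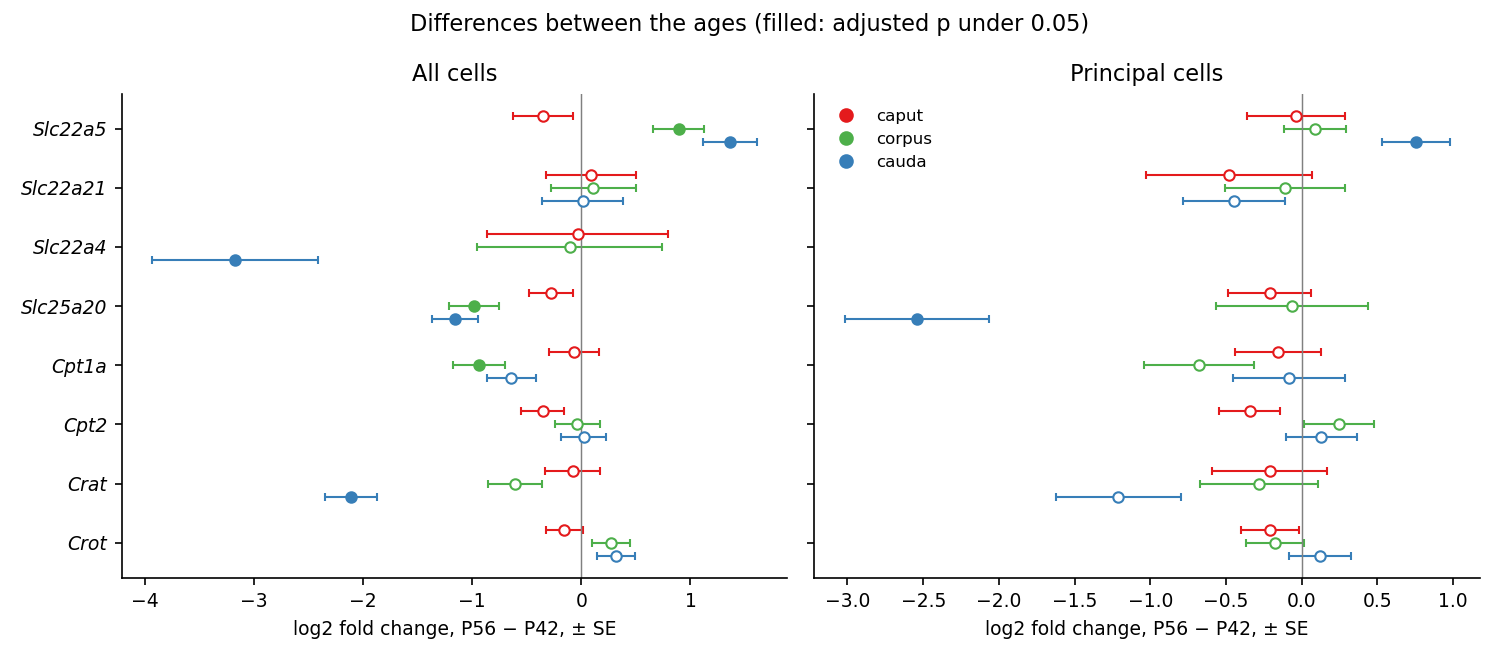
Differences between the ages in each segment for all cells and for principal cells, as log2 fold changes (P56 minus P42) ± SE from edgeR on the horizontal axis, filled where the adjusted p is under 0.05. Slc22a4 in principal cells is left out for lack of UMIs. Caput points pass for none of the genes, and the points farthest from 0 are in the cauda.

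Other genes of fatty acid use, taken as lists from the pathway, give the surroundings of these results. In principal cells 8 of 15 genes of mitochondrial beta-oxidation passed over the segments (43% of all genes), with 0 higher (17.6% of all genes) and 7 lower (18.8%) in the cauda than in the caput, and a median difference of -0.54 against -0.0050 over all genes tested. Acadl, the long-chain acyl-CoA dehydrogenase, had caput, corpus and cauda means of 45.5 ± 9.67, 10.9 ± 4.19 and 9.96 ± 7.38 CPM (SD, n = 3), a difference of -2.20 ± 0.25 between cauda and caput (edgeR adjusted p = 0.00032). Acaa2, a thiolase, fell by 2.07, the short-chain dehydrogenase Acads by 1.5 and the medium-chain dehydrogenase Acadm by 1.04. Acads went from 5.28 CPM in the caput to 4.91 in the cauda at P42, and from 5.16 to 1.07 and from 5.20 to 0.74 at P56. Over all cells 2 of the 15 passed, Acadl and Acadm, both lower in the corpus and cauda, where 29.5% of all genes did.

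Of 10 peroxisomal genes tested in principal cells 3 passed, where 43% of all genes did. Scp2, a thiolase and sterol carrier, had means of 193 ± 26.4, 706 ± 28.7 and 373 ± 48.9 CPM in caput, corpus and cauda (SD, n = 3), a corpus difference of 1.95 ± 0.24 (edgeR adjusted p = 0.000459). Among acyl-CoA and malonyl-CoA supply 5 of 7 passed: the synthetases Acsl5 and Acsl4 and the carboxylase Acaca were higher in the cauda by 1.34, 1.12 and 0.93, and the synthetase Acsl6 was lower, at 2.01 ± 0.59 CPM in the caput and 0.10 ± 0.12 in the cauda. Acaca went from 3.84 CPM in the caput to 13.6 in the cauda at P42, but from 3.11 to 3.72 and from 3.61 to 3.89 at P56. The P42 cauda library thus carried its cauda mean. Of 5 transcription factors and coactivators 2 passed, with Ppara at 3.24 ± 1.15 CPM in the caput and 0.40 ± 0.17 and 0.29 ± 0.14 in corpus and cauda (cauda from caput -2.94 ± 0.49, adjusted p = 0.00225) and Ppard higher in the cauda by 0.56. Ppard went from 10.2 CPM in the caput to 16.4 in the cauda at P42, but from 6.59 to 7.50 and from 8.22 to 9.27 at P56. Its largest rise was thus that of the P42 pool, and the segments overlapped. Outside the caput, Ppara had 1 to 8 UMIs per library and Acsl6 0 or 1. In the caput they had 52 to 57 and 17 to 51. Both genes passed the filter on low counts only through the caput, where they are high, so their calls add little to the levels themselves.

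Carnitine synthesis had 1 gene of 3 enter the test in principal cells, and it passed. Over all cells 1 of 3 passed over the segments, and 2, Tmlhe (1.45 ± 0.42, adjusted p = 0.0446) and Aldh9a1 (0.48 ± 0.14, edgeR adjusted p = 0.0423), were higher in the cauda than in the caput. Tmlhe had 8, 3 and 7 UMIs in the caput libraries and 9, 11 and 20 in those of the cauda. It passed the filter on low counts through corpus and cauda, where it is high. Aldh9a1 went from 49.5 CPM in the caput to 65.7 in the cauda at P42. At P56 it went from 32.3 to 37.4 and from 42.4 to 44.2, so the segments overlapped. These CPM leave out the TMM factors, which the fitted difference includes. Of other carriers and CPT1 forms 2 of 3 passed over all cells and 0 of 1 in principal cells. Slc22a16, a carnitine transporter known from testis, was 1.14 ± 0.75 CPM in the caput and 0.03 ± 0.03 in the cauda (-5.20 ± 0.80, adjusted p = 0.00465), and Slc16a9, a carnitine efflux carrier, was 0.90, 0.03 and 0.14 CPM in the caput and 7.72, 0.62 and 1.2 CPM in the cauda (P42, P56 replicate 1 and P56 replicate 2), so that the P42 cauda library carried the cauda mean and the P42 caput library lay above 1 of the cauda libraries. Its fitted difference was 3.32 ± 0.58 (adjusted p = 0.00718). Without the P42 pool it was 3.75 (adjusted p = 0.000307), and both carriers lost this call without P56 replicate 1 (adjusted p = 0.0763 for Slc16a9 and 0.0803 for Slc22a16) and without P56 replicate 2 (0.0738 and 0.0735). Slc22a16 had 1, 0 and 1 UMIs in the cauda libraries and passed the filter through caput and corpus. Slc16a9 had 26, 1 and 5 UMIs in the caput libraries and passed it through corpus and cauda, where it is high. The calls of both carriers thus add little to the levels themselves. Over all cells, supply genes passed in 3 of 8, peroxisomal genes in 3 of 11 and transcription factors in 1 of 6, against 29.5% of all genes. Over both sets of sums and all lists 31 calls were made, 55 without the P42 pool, 8 without P56 replicate 1 and 11 without P56 replicate 2. In the same order, 29.5%, 58.3%, 3.21% and 6.6% of all genes passed over all cells. In principal cells 43%, 61.6%, 16.3% and 22% did.

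Over the 9 libraries of principal cells, the genes most like each carnitine gene were found among 6424 genes with a mean of at least 10 CPM, by Pearson's r of log2(CPM + 1). The libraries share segments and pools, so r describes the pattern over these libraries. For Slc22a4, Crat and Cpt2, which had no segment call, this need not be a segment pattern. The highest Slc22a4 level was that of the P42 cauda library. For Slc22a5 these were B3galt2, Rbm24 and Ndufb9 (r = 0.996 each), for Slc22a21 1110059E24Rik (0.98), Stat5a and Ahnak, and for Slc22a4, at a level near 0, Plpp3 (0.973), Crtap and Fam114a1. Slc25a20 was most like Cdk5rap3 (0.99), Il10rb and Rps6ka3, and Cpt1a most like Sdc1 (0.993), Med11 and Spin1. For Cpt2 the nearest were Rnf114 (0.961), Pdlim5 and Ngly1, for Crat Setbp1 (0.986), Mybbp1a and Lgmn, and for Crot Pdk1 (0.982), Slc35e2 and Zfp120.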

How the data were processed

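Single-cell transcript counts of 9 libraries (3 segments of 3 pools of 5 mice) were analysed. Per the labels and the study's methods, the authors trimmed reads with fastp, extracted barcodes with UMI-tools, mapped with STAR 2.7.3a to GRCm38.p6, assigned exonic reads with featureCounts and collapsed UMIs at an editing distance of 1. The deposited values are raw UMI counts per gene and cell, with 23114756 to 50655384 UMIs per library, and were not normalized. Handling of multi-mapped reads and of strand is not given in the sources used here.

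Cells with 300 to 4000 genes, at most 20000 UMIs and under 50% mitochondrial UMIs were kept (42087). A globin-rich cluster of 596 cells and 5 globin genes were left out. Cells were clustered (3000 variable genes without the 8 genes, 50 components, 20 neighbours, resolution 1, giving 35 clusters) and named from markers. No doublet caller was run, and leaving out the 5% of cells with the most UMIs was an alternative. UMIs were summed per library and population (at least 10 cells) and tested with edgeR 4.0.16 (R 4.3.3) by the quasi-likelihood test, with filterByExpr and TMM factors, and with Benjamini-Hochberg adjustment over all genes tested. Segments were compared with the pool as a block, because the same mice gave all 3 segments, and deviations within a pool correlated by 0.306 to 0.805 over all cells and by 0.0406 to 0.653 in principal cells. Between pools the range was -0.773 to 0.684 over all cells and -0.610 to 0.459 in principal cells, so the ranges overlapped. Ages, in which pools are nested, were compared in a fit with 1 mean per segment and age, and segment differences between the ages also with the pool as a block (chosen after seeing the data). CPM are UMIs per 1000000 summed UMIs, a scale without TMM factors, while fitted differences include them. Populations were compared within libraries by exact permutation tests (scipy 1.17.1). Alternatives were DESeq2 1.42.0, TMM factors of 1, no filter, no block, no mitochondrial genes, other ways of naming cells (counting unnamed clusters as principal cells was chosen after seeing the data) and each pool left out. Tests were checked on simulated data. The 8 genes, the gene lists and the markers were chosen with earlier results of these data known. Named genes are the 8, the called genes of each list with the largest difference between caput and cauda (at most 4), and the 3 genes most like each of the 8. Of the genes this rule names, 1 is not reported here.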

Additional observations from a re-analysis of the deposited data

Results flagged for a closer look

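For 3 results the difference between segments itself differed between the ages, by edgeR's quasi-likelihood test of the interaction (caput minus cauda at P56, less caput minus cauda at P42). The fit had 1 mean per segment and age and no pool block, although the segments were paired by pool. Over all cells, where 21% of genes passed, this was -1.72 ± 0.36 on the log2 scale for Slc22a5 (SE, adjusted p = 0.0147), whose cauda level was 13.6 CPM at P42 and 17.2 and 24.2 CPM at P56. For Crat it was 2.04 ± 0.36 (adjusted p = 0.0074), with 11.5 CPM in the cauda at P42 against 1.54 and 1.60 CPM at P56. In principal cells, where 15% of genes passed, it was 2.33 ± 0.55 for Slc25a20 (adjusted p = 0.0232, and 0.0694 in DESeq2), which rests on 22, 5 and 12 cauda UMIs. The P42 cauda library, which stood apart in its cells and depth, enters each of the 3, and age and library cannot be told apart there, since it is the only cauda library at P42. For corpus minus caput 0 of the 8 genes passed by edgeR, where 0% of genes passed over all cells and 0.221% in principal cells, and 2 had an unadjusted p under 0.05 (Slc22a5 and Cpt1a, both over all cells). In a fit with the pool as a block, chosen after seeing the data, the 3 differences were -1.71 for Slc22a5 (adjusted p = 0.00211), 2.04 for Crat (0.00283) and 2.33 for Slc25a20 (0.0154), where 27.6% of genes passed over all cells and 19.3% in principal cells. Slc22a4 over all cells also passed there (3.17 ± 1.07, adjusted p = 0.0475, against 0.0885 without the block), and for corpus minus caput 0 of the 8 did (2.52% and 1.12% of all genes), with Slc22a5 over all cells nearest (adjusted p = 0.0566). With TMM factors of 1 the share of genes with a positive interaction went from 51.4% to 77.4% of those called over all cells and from 48.5% to 89.9% in principal cells, and the median moved by 0.38 and 0.49.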

How the results depend on the processing

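The count of carnitine genes that passed over the segments in principal cells was 5 under all alternatives run, pools left out included. Over all cells it was 5 except with a pool left out, where it ranged from 0 to 5. Over the other populations 11 calls became 14 without the filter, 12 with TMM factors of 1, 8 with DESeq2, 7 without the replicate block, 7 with cells gated 1 by 1 (which could not be fitted for halo/T cells), and 4 to 17 with a pool left out. Of all genes, 8.99% to 28.5% passed in these populations with all pools. The share was 19.1% to 42.3% without the P42 pool. Without P56 replicate 1 it was 2.64% to 20.8%, and without P56 replicate 2 it was 3.29% to 29.1%. For the other alternatives that share is not given here, so their counts are a description. Without the block the count stayed at 5 over all cells and in principal cells, and the pathway calls went from 31 to 26. With the block the 3 segment differences that changed with age became 4. Pathway calls ranged from 8 to 55 with a pool left out, where the shares of all genes are given above. Calls between the ages in principal cells numbered 3, but 1 with DESeq2 and 5 with TMM factors of 1. The share of corpus principal cells with a Slc22a5 UMI was 17.1%, and 2.72% after thinning, which follows from the lower depth.

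Signs turned in 9 cases, of which 8 were differences that had not passed. With each pool left out in turn, over all cells, the cauda minus caput difference ranged from -0.68 to 1.69 for Slc22a4, from -0.23 to 0.85 for Crat and from -0.29 to 0.020 for Crot, and the corpus minus caput difference of Cpt2 ranged from -0.13 to 0.055, and from -0.14 to 0.16 in principal cells. The sign turned without the P42 pool in each. With TMM factors of 1 Cpt2 (cauda minus caput, all cells) became -0.097 and Slc22a5 (P56 minus P42, cauda principal cells), the case that had passed, became -0.030. With gated cells Crat (cauda minus caput, principal cells) became -0.73 and Cpt2 (corpus minus caput) 0.15. The causes were not tested. Of the other values of single genes, 385 kept their direction and side of the threshold, 22 lost the call, 5 gained it and 4 moved. The loss of Slc25a20 in the corpus between ages over all cells with DESeq2 (adjusted p = 0.0507) is among them. Leaving out a P56 pool leaves no residual degrees of freedom for the ages, so those are values with no test. Depth limits Slc22a4 (126 UMIs in all cells), the sperm values and Slc25a20 outside the caput.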
